A study of Homo sapiens with 6 samples.

Results

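The 8 protein kinase C (PKC) genes PRKCA, PRKCB, PRKCD, PRKCE, PRKCH, PRKCQ, PRKCI and PRKCZ were followed across naive and primed human embryonic stem cells. They were taken by name from a table of 48183 gene names, and each had 1 Ensembl identifier among 61196. The measurement was bulk RNA-seq of polyadenylated RNA in 6 libraries, 4 naive and 2 primed, and the question was how each isoform differs between the 2 states. The naive libraries came from cells induced with AICAR, an activator of AMP-activated protein kinase (2 libraries, AICAR 1 and AICAR 2), with a doxycycline-switched, constitutively active p38 (CA-p38, 1 library), or with valproic acid, a histone deacetylase inhibitor (VPA, 1 library). The primed libraries came from the untreated parental lines, 1 of EOS cells, the parent of the AICAR and VPA cells, and 1 of CA-p38 EOS cells, the parent of the CA-p38 cells.

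All 6 libraries carried the EOS-GFP reporter of OCT4 distal enhancer activity on a piggyBac vector, and both CA-p38 libraries also carried the p38 transgene. The sample labels give the line as H1 and the study's methods give it as H9. Reporter cells were selected with puromycin and p38 cells were sorted for mCherry, and picking of single clones is not mentioned. Primed cells grew in StemFit AK02N without feeders. AICAR and doxycycline were given in PXGL medium, which holds the MEK inhibitor PD0325901, the tankyrase inhibitor XAV939, the PKC inhibitor Go6983 and LIF. VPA was given with PD0325901 and LIF, without Go6983 and XAV939, and after conversion all cells were, per the labels, returned to PXGL, passaged and sorted for CD75 and SUSD2. The labels place naive cultures on mouse feeders, and the study also describes growth of CA-p38 cells without feeders, so that the feeder status of each library at harvest is not certain. Every naive library therefore came from cells kept in a PKC inhibitor and no primed library did, so that state, medium, inhibitor, feeders and sorting cannot be told apart here.

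PKC enzymes are serine/threonine kinases that relay signals from membrane lipids. The conventional isoforms (here PRKCA and PRKCB) need calcium and diacylglycerol, the calcium-independent isoforms (PRKCD, PRKCE, PRKCH and PRKCQ) need diacylglycerol alone, and the atypical isoforms (PRKCI and PRKCZ) respond to neither and act in the cell polarity complex with PAR3 and PAR6. Phospholipase C makes the diacylglycerol and diacylglycerol kinases remove it. Inhibition of PKC is part of several media that hold human cells in the naive state, PXGL among them, but not of all. RNA levels are given here, which do not measure kinase protein or activity.

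Total counts per library ran from 46823699 to 54277064. A library with no count of a gene has an upper limit of 3 counts, or 0.0552 to 0.0613 CPM (counts scaled to the library's TMM-adjusted total), for counting error only. The labelled states were borne out by their markers. All 6 naive markers tested were higher and all 6 primed markers lower in naive libraries. SUSD2, 1 of these naive markers, was also used to sort the naive cells, so its level is not independent of the sort. Of 4 pluripotency markers shared by both states, 1 was higher, 2 were lower and 1 did not pass the threshold. NANOG was higher in naive libraries (log2 fold change 1.33), and SALL4 (-0.66) and LIN28A (-1.73) were lower. POU5F1 averaged 1540.4 ± 61.6 CPM over naive (SD, n = 4) and 1678 ± 46.7 CPM over primed libraries (SD, n = 2). It did not pass (log2 fold change -0.12, adjusted p = 0.224). Markers of other cell types also moved with state. The summed level of 8 fibroblast genes was 124 to 163 CPM in naive and 381 to 398 CPM in primed libraries, with 4 of 8 lower and LUM at 0 in AICAR 2 and VPA. The summed level of 6 neural genes was 243 to 289 against 553 to 652 CPM, with 3 lower, 1 higher and MAP2 at 0 in CA-p38. The summed level of 8 blood cell genes was 2.76 to 6.85 against 36.8 to 52.4 CPM, of which LCK alone made 35.1 to 51.1 CPM in primed libraries, while CD3D was at 0 in all naive libraries and PTPRC at most 0.134 CPM in any library. The part of these genes' sources in the PKC values was not tested. In bulk RNA, fewer cells of a type and less RNA per cell cannot be told apart.

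All 8 PKC genes had enough counts to be tested, and all 8 differed between states (edgeR's quasi-likelihood test, Benjamini-Hochberg adjusted p under 0.05). PRKCA, PRKCB, PRKCE, PRKCH, PRKCQ and PRKCI fell in naive cells, each at least 2-fold, and PRKCD and PRKCZ rose. Of the 26497 genes tested, 53.1% passed the threshold, 27% lower and 26% higher in naive cells, so that passing it was common. In 6 genes the naive libraries all lay below both primed libraries, as in 32.1% of all genes, and in 2 all lay above, as in 32.8%. The median log2 fold change of the 8 genes was -1.33, against 0.11 for all genes tested.

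**Figure D1:**
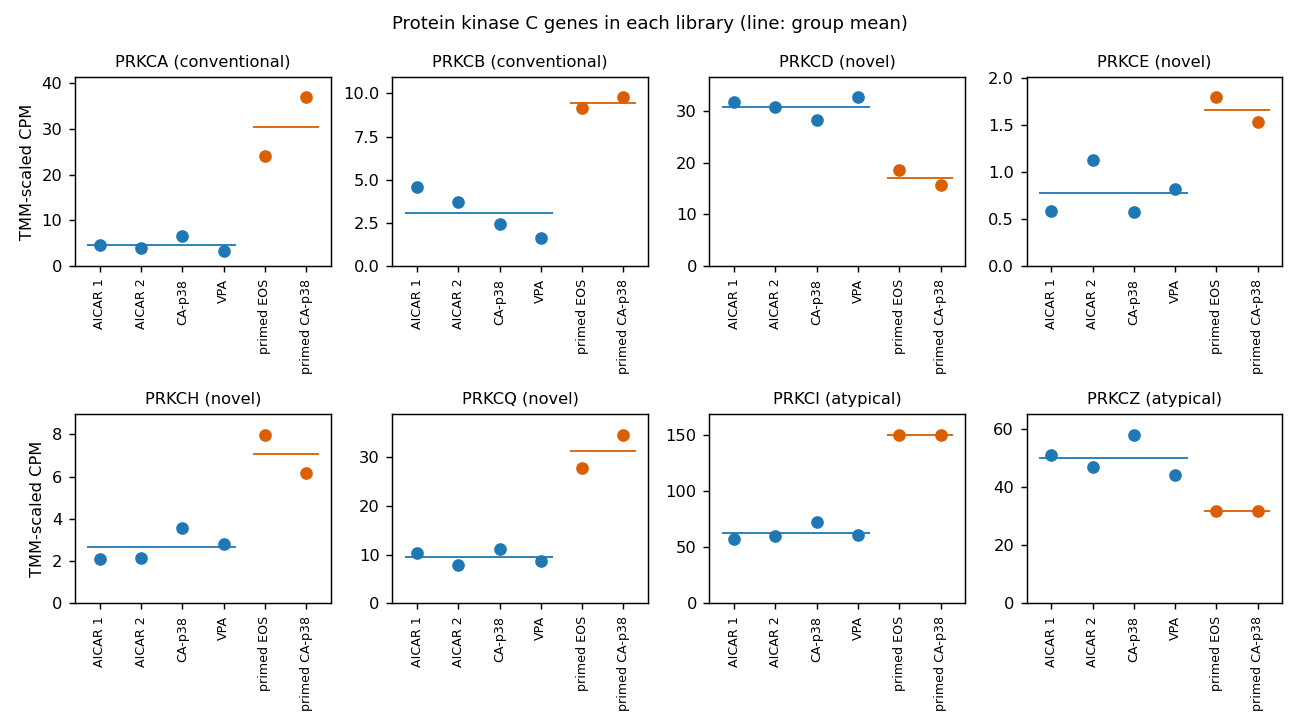
TMM-scaled CPM (vertical axes, from 0, a scale of its own in each panel) of the 8 PKC genes in 4 naive libraries (blue) and 2 primed libraries (orange), with 1 point per library and a line at each group's mean. PRKCD and PRKCZ lie higher in all naive libraries than in either primed one, and the other 6 are lower.

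The starts of 4 of these genes are shown because they cover the largest fall (PRKCA), the fall shared with a divergent transcript (PRKCQ) and both rises (PRKCD and PRKCZ). Each sequence is the 250 bases before the most upstream RefSeq start of the gene (GRCh38.p14), 5′ to 3′ on the gene's strand, with GC boxes (GGGCGG, or CCGCCC on the other strand, overlapping matches counted) in capitals. Over 35116 RefSeq promoters of this length, 42.6% held at least 1 GC box and the median number of CpG sites was 11.

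PRKCA, chr17:66302363-66302612, plus strand: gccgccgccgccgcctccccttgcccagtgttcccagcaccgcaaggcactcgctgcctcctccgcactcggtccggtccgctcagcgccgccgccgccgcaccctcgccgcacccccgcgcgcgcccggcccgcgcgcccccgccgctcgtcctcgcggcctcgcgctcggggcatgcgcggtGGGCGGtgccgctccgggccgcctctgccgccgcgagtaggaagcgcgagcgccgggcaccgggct
PRKCQ, chr10:6580647-6580896, minus strand: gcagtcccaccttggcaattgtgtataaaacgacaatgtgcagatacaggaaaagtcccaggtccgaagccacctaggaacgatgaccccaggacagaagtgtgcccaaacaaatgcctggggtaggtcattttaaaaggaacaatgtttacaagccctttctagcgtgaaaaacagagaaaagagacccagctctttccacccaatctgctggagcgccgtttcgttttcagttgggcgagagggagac
PRKCD, chr3:53160959-53161208, plus strand: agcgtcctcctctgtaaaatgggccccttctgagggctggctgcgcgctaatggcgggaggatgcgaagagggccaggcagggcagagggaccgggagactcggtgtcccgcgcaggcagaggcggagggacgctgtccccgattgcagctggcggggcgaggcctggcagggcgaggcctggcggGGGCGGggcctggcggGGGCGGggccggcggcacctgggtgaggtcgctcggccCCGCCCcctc
PRKCZ, chr1:2050161-2050410, plus strand: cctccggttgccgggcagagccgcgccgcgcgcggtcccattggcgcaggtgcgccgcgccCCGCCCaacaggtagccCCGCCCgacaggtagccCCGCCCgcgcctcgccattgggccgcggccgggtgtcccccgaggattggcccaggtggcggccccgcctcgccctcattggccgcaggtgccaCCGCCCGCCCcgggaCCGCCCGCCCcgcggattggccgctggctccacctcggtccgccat

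The PRKCA window held 47 CpG sites, above the count of 99.7% of all promoters, and 1 GC box. The PRKCQ window differed from the other 3 in base composition, with 8 CpG sites, 49.2% GC and no GC box. The PRKCD window held 24 CpG sites and 3 GC boxes, and the PRKCZ window held 37 CpG sites and 7 GC boxes. RefSeq gives PRKCD 3 starts and PRKCZ 4, and the counts per gene do not tell which start was used. These matches are descriptions of the sequence and do not show binding.

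Both conventional isoforms fell. PRKCA (chromosome 17, 66302613 to 66810743), a widely expressed isoform, was measured at 4.52 CPM (AICAR 1), 4.02 (AICAR 2), 6.65 (CA-p38 naive) and 3.40 (VPA), while the EOS parent stood at 24.1 and the CA-p38 parent at 36.9. All naive values lay below both primed values, with a 1.96-fold range among naive libraries and a 1.53-fold difference between the primed ones. The log2 fold change was -2.71 (standard error, SE, 0.25, adjusted p = 1.04e-06), a 6.56-fold lower level and the largest change of the 8 genes. PRKCB (chromosome 16, 23835983 to 24220611), known best from B cells, was measured at 4.58 CPM (AICAR 1), 3.68 (AICAR 2), 2.41 (CA-p38 naive) and 1.64 (VPA), while the EOS and CA-p38 parents stood at 9.13 and 9.77. Here the primed libraries lay close together and the naive libraries were spread over 2.79-fold, the widest range among naive libraries of the 8 genes. The log2 fold change of PRKCB was -1.62 (SE 0.33, adjusted p = 0.00112).

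Of the calcium-independent isoforms 3 fell and 1 rose. PRKCQ (chromosome 10, 6427143 to 6580301, minus strand), the isoform of the T cell synapse, was measured at 10.4 CPM (AICAR 1), 7.93 (AICAR 2), 11.1 (CA-p38 naive) and 8.59 (VPA), while the EOS parent stood at 27.8 and the CA-p38 parent at 34.5. Its log2 fold change was -1.71 (SE 0.17, adjusted p = 2.68e-06), so that PRKCQ was 3.28-fold lower in naive cells. PRKCH (chromosome 14, 61187559 to 61550976), an isoform of epithelia and lymphocytes, was measured at 2.12 CPM (AICAR 1), 2.15 (AICAR 2), 3.58 (CA-p38 naive) and 2.83 (VPA), while the EOS parent stood at 7.98 and the CA-p38 parent at 6.17. The CA-p38 library was the highest of the naive libraries and the primed CA-p38 library the lower of the primed pair, and the groups did not overlap (log2 fold change -1.41, SE 0.27, adjusted p = 0.000790). PRKCE (chromosome 2, 45651345 to 46187990) was the least abundant, with 29 to 56 counts in naive and 75 and 89 counts in primed libraries. These counts corresponded to 0.778 ± 0.259 CPM (SD, n = 4) against 1.67 ± 0.187 CPM (SD, n = 2). Its log2 fold change of -1.10 (SE 0.39, adjusted p = 0.0317) no longer passed with library totals as scaling, without AICAR 1, without CA-p38 or without either primed library, at adjusted p up to 0.158.

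PRKCD (chromosome 3, 53156009 to 53192717), a calcium-independent isoform linked to apoptosis and to differentiation, went the other way. It was measured at 31.7 CPM (AICAR 1), 30.8 (AICAR 2), 28.2 (CA-p38 naive) and 32.6 (VPA), while the EOS parent stood at 18.5 and the CA-p38 parent at 15.7. The naive libraries agreed within 1.16-fold, the narrowest range of the 8 genes, and all lay above both primed libraries. PRKCD was 1.80-fold higher in naive cells (log2 fold change 0.85, SE 0.14, adjusted p = 0.000225).

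The atypical isoforms moved in opposite directions. PRKCI (chromosome 3, 170222424 to 170305977), the polarity kinase needed for early epithelia, was measured at 57.4 CPM (AICAR 1), 60.3 (AICAR 2), 72.4 (CA-p38 naive) and 61.0 (VPA), while the EOS parent stood at 150.7 and the CA-p38 parent at 150.2. The primed libraries were nearly equal and every naive library was below 0.5 times their level (log2 fold change -1.26, SE 0.11, adjusted p = 8.01e-07). PRKCZ (chromosome 1, 2050411 to 2185395), its close relative, was measured at 50.8 CPM (AICAR 1), 46.8 (AICAR 2), 58.0 (CA-p38 naive) and 44.1 (VPA), while both parents stood at 31.8. The CA-p38 library was the highest naive library for PRKCI and for PRKCZ alike. PRKCZ was 1.57-fold higher in naive cells (log2 fold change 0.65, SE 0.14, adjusted p = 0.00133). In GENCODE, 590 bases of PRKCZ exons, 7.67% of their length, overlap exons of FAAP20 on the other strand, and FAAP20 was lower in naive cells (log2 fold change -0.66). PRKCH exons overlap those of TMEM30B on the other strand by 356 bases, 3.98% of the PRKCH exon length. TMEM30B had more counts than PRKCH in every library and did not pass (log2 fold change 0.07). Whether counting used the strand is not stated, so reads of these overlaps may be shared. PRKCH exons also overlap those of an unnamed gene on the same strand by 419 bases, 4.68% of the PRKCH exon length. Strand could not separate reads there.

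**Figure D2:**
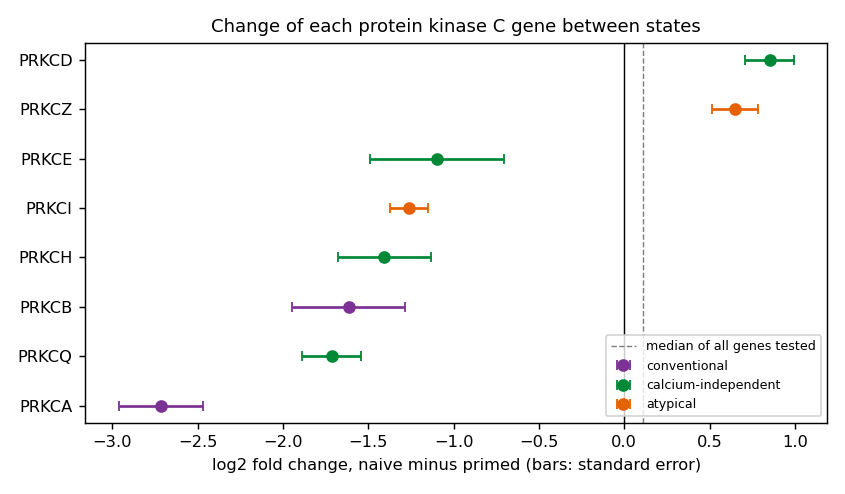
Log2 fold change between naive and primed libraries (horizontal axis, positive is higher in naive) of each PKC gene, with the standard error of the edgeR fit as bars and colour for the isoform class. PRKCD and PRKCZ lie at 0.85 and 0.65 and the other 6 between -2.71 and -1.10, while the dashed line marks the median of all genes tested, 0.11.

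Antisense transcripts were read by their own identifiers. PRKCQ-AS1, a noncoding RNA that starts 118 bases from the GENCODE start of PRKCQ on the opposite strand, fell along with it. Its naive values ran from 5.53 to 7.05 CPM and its primed values were 13.4 and 12.4 CPM (log2 fold change -1.05, SE 0.19, adjusted p = 0.000445). The exons of this pair do not overlap in GENCODE, but the PRKCQ sequence printed above lies inside the PRKCQ-AS1 gene, since RefSeq starts PRKCQ further upstream. PRKCZ-AS1 had 0.535 to 2.06 CPM in naive and 0.654 and 1.11 CPM in primed libraries and did not pass (log2 fold change 0.53, SE 0.52, adjusted p = 0.409). PRKCA-AS1 had 9 counts in primed EOS, 1 in primed CA-p38 and 0 in every naive library, and PRKCE-AS1 had 2 counts in primed EOS and 0 elsewhere, which are too few to test.

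Each induced library was also set against its own parental line, with 1 library on each side and therefore without a test. In all 4 naive libraries, the same 6 genes lay below the parental level and the same 2 above it, and the 95% Clopper-Pearson interval of the counts left out a ratio of 1 in every one of these comparisons. The intervals cover counting error only. For PRKCA the fall was 5.32-fold in AICAR 1 (interval 4.64 to 6.13), 5.97-fold in AICAR 2 (5.15 to 6.99), 5.55-fold in CA-p38 (4.95 to 6.26) and 7.07-fold in VPA (6.05 to 8.35). The group comparison sets the CA-p38 library beside both parents, and against its own parent its fall was close to that of the AICAR libraries. For PRKCB the fall was 1.99-fold in AICAR 1 (1.70 to 2.34), 2.48-fold in AICAR 2 (2.08 to 2.96), 4.04-fold in CA-p38 (3.31 to 4.98) and 5.53-fold in VPA (4.41 to 7.09). The AICAR libraries thus had the smallest falls of PRKCB and VPA the largest, and the intervals of AICAR 1 and AICAR 2 did not meet those of CA-p38 and VPA.

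PRKCH fell least in CA-p38, by 1.72-fold (1.43 to 2.08), and 3.76-fold in AICAR 1, 3.69-fold in AICAR 2 and 2.82-fold in VPA. For PRKCQ the falls were 2.68-fold to 3.50-fold, lowest in AICAR 1 and highest in AICAR 2, so that libraries of 1 induction method spanned the range of all 4. PRKCI fell 2.08-fold in CA-p38 (1.99 to 2.16) and 2.47-fold to 2.63-fold in the other 3 libraries. The level of PRKCD over its parent was 1.67-fold to 1.79-fold and hardly differed between inductions. PRKCZ was 1.82-fold above its parent in CA-p38 (1.71 to 1.94), 1.60-fold and 1.47-fold in AICAR 1 and AICAR 2, and 1.39-fold in VPA (1.30 to 1.48). No test was made between induction methods, of which only AICAR had more than 1 library. The study also gives more passages after induction for the AICAR libraries than for CA-p38 and VPA. Induction method and passage number therefore cannot be told apart.

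**Figure D3:**
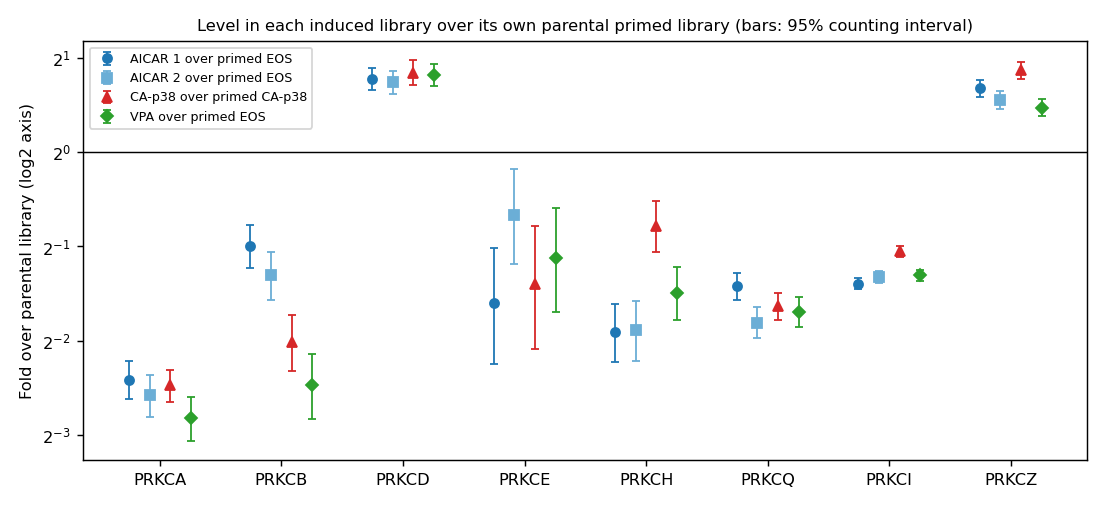
Fold of each induced library over its own parental primed library (vertical axis, log2 scale, line at 1) for each PKC gene, with 95% counting intervals as bars and 1 symbol per induced library. PRKCD and PRKCZ lie above 1 and the other genes below 1 in every library, and PRKCB ranges from a 1.99-fold fall in AICAR 1 to a 5.53-fold fall in VPA.

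To compare the isoforms with each other, levels were divided by the length of the union of each gene's exons in GENCODE, giving CPM per kilobase. On that scale PRKCI was the highest in both states, with 10.9 CPM per kilobase (SD 1.14) in naive and 26.04 (SD 0.0568) in primed libraries. In primed cells PRKCQ came next with 9.49, then PRKCZ with 4.13 and PRKCD with 3.48, followed by PRKCA with 2.73, whose range met that of PRKCD. In naive cells the next were PRKCZ with 6.49 and PRKCD with 6.28, whose ranges overlapped, and PRKCQ followed with 2.89. PRKCA (0.416), PRKCH (0.298) and PRKCB (0.279) overlapped in sequence below them, and PRKCE was lowest in both states, with 0.0779 in naive and 0.167 in primed libraries. By the union of exons, PRKCQ thus came before PRKCZ in primed cells and behind PRKCZ and PRKCD in naive cells.

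The summed level of the 8 genes was 27.6 ± 1.96 CPM per kilobase (SD, n = 4) in naive and 47.7 ± 1.68 (SD, n = 2) in primed libraries, 1.73-fold lower in naive cells. The conventional isoforms summed to 0.695 ± 0.171 against 3.59 ± 0.854, 5.16-fold lower. The calcium-independent isoforms summed to 9.55 ± 0.359 against 13.9 ± 0.889, 1.46-fold lower. The atypical isoforms summed to 17.3 ± 1.81 against 30.2 ± 0.0617, 1.74-fold lower. Atypical transcripts were 62.8 ± 2.25% of the sum in naive and 63.3 ± 2.36% in primed libraries, a difference smaller than the spread between libraries. Within that class PRKCI made 39.3 ± 2.03% of the family in naive and 54.6 ± 2.05% in primed libraries, and PRKCZ 23.5 ± 1.33% and 8.67 ± 0.316%. The ratio of PRKCI to PRKCZ was 1.503 to 1.84 in naive and 6.30 in both primed libraries. PRKCD rose from 7.32 ± 1.10% to 22.9 ± 2.78% of the family, and PRKCA went from 5.70 ± 1.505% to 1.49 ± 0.338%.

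These shares depend on the length used. With the longest transcript of each gene in place of the union of exons, PRKCZ was the highest in naive cells, at 42.5% of the family against 26.1% for PRKCI, while PRKCI stayed the highest in primed cells at 46.4% against 20.1%. In primed cells PRKCZ, at 13.3 CPM per kilobase, then came before PRKCQ at 9.57, with ranges apart. The summed level of the 8 genes was then 1.35-fold lower in naive cells, that of the conventional class 5.08-fold, of the calcium-independent class 1.22-fold and of the atypical class 1.31-fold. The order of PRKCI and PRKCZ in naive cells and that of PRKCQ and PRKCZ in primed cells are therefore not settled. The size of the summed falls is not settled either. The fold change of each gene between states was computed without a length, but counts per gene do not tell which transcripts were used. A shift between transcripts of unlike length was not tested.

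**Figure D4:**
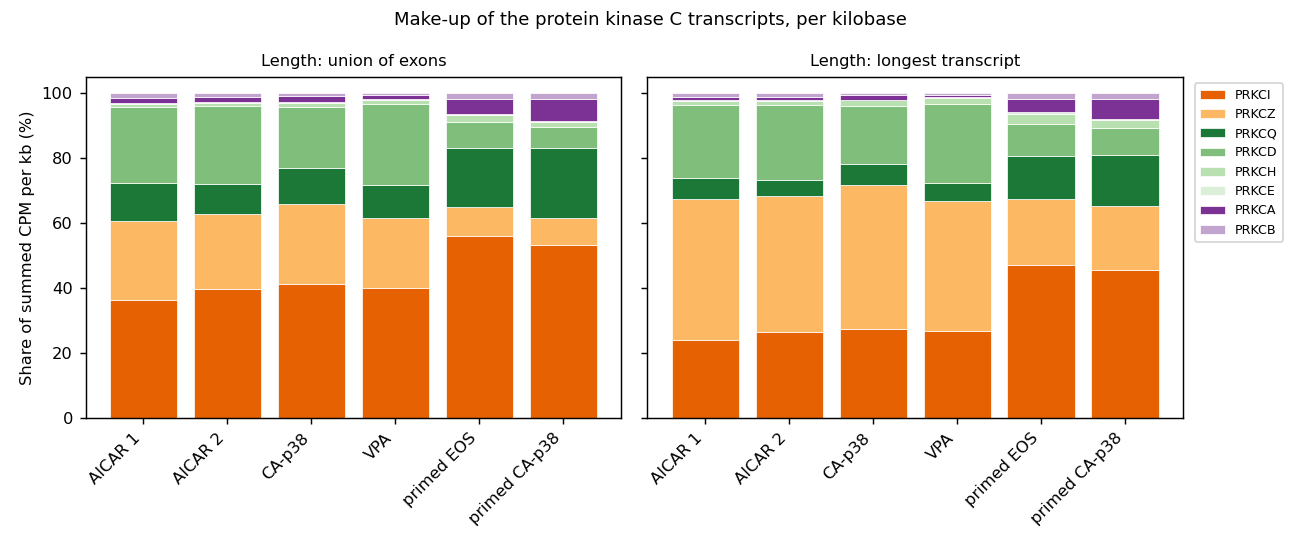
Share of each PKC gene in the summed CPM per kilobase (vertical axis, percent) in each of the 6 libraries, with the union of exons as length on the left and the longest transcript on the right. With either length, the PRKCZ and PRKCD segments are larger and the PRKCI, PRKCQ and PRKCA segments smaller in the 4 naive libraries than in the 2 primed libraries.

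Genes around PKC were read from the same fit. Of 7 related kinases, 5 fell and 1 rose. PRKD3, a protein kinase D that PKC isoforms activate, fell from 96.4 ± 11.4 to 26.6 ± 1.85 CPM (log2 fold change -1.86, SE 0.12, adjusted p = 3.63e-08), and PRKD2 had a log2 fold change of -0.54. PKN2 had 0.50 (adjusted p = 0.00611) and did not pass without the primed EOS library (adjusted p = 0.0918). PRKD1, singled out after its values were seen, had 462 and 452 counts in the primed libraries and 0 to 2 counts in each naive library, at least 159.9-fold lower against a floor of 3 counts per library.

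Upstream of PKC, 12 of 13 phospholipase C genes were tested, of which 6 fell and 2 rose. PLCH1 fell from 42.0 ± 3.57 to 2.76 ± 0.572 CPM (log2 fold change -3.93, SE 0.19, adjusted p = 2.84e-09) and PLCB4 had -2.01. PLCE1, a phospholipase C that small GTPases regulate, rose from 5.12 ± 0.387 to 32.1 ± 3.84 CPM (log2 fold change 2.65, SE 0.17, adjusted p = 5.27e-08), and PLCD3 had 1.71. The list had a median log2 fold change of -0.65. Of 10 diacylglycerol kinases, 5 fell and 4 rose, with DGKD at -2.16, DGKH at -1.34, DGKA at 1.20 and DGKE at 0.66. DGKE (adjusted p = 0.0328) did not pass without the CA-p38 library or without the primed CA-p38 library (adjusted p = 0.242).

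Of 12 genes for maturation and turnover of the kinase, 5 rose and 4 fell, and the median log2 fold change was 0.05. PDPK1, the kinase that phosphorylates the activation loop of PKC, rose from 43.9 ± 5.92 to 74.3 ± 6.86 CPM (log2 fold change 0.76, SE 0.13, adjusted p = 0.000301), and CDC37, a chaperone for kinases, had 0.62. PHLPP1, a phosphatase that acts on the hydrophobic motif, fell from 66.7 ± 3.14 to 17.3 ± 0.900 CPM (log2 fold change -1.95, SE 0.12, adjusted p = 2.11e-08). RICTOR, a subunit of the mTOR complex 2 that acts on PKC, had -0.53 (adjusted p = 0.00687) and did not pass without the primed CA-p38 library (adjusted p = 0.0551).

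Among 16 scaffolds and substrates, 10 fell and 4 rose, with a median log2 fold change of -1.08. MARCKS, a membrane protein that is a classic PKC substrate, had 257 ± 18.3 CPM in primed and 5.14 ± 2.52 CPM in naive libraries (log2 fold change -5.65, SE 0.30, adjusted p = 7.21e-09). ADD2, an adducin of the membrane skeleton, fell from 363 ± 4.50 to 66.9 ± 7.68 CPM (log2 fold change -2.44). In the other direction, AKAP12, a scaffold that binds PKC, rose from 184 ± 6.20 to 874 ± 53.7 CPM (log2 fold change 2.25, SE 0.10, adjusted p = 1.81e-09). PPP1R14A, a phosphatase inhibitor that PKC activates, rose from 11.8 ± 4.74 to 131 ± 6.53 CPM (log2 fold change 3.47, SE 0.21, adjusted p = 2.23e-08).

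Among 10 genes of the RASGRP, chimaerin (CHN) and UNC13 families, known for a diacylglycerol-binding C1 domain, 5 rose and 3 fell, and the median was 0.72. UNC13D lacks that domain, but was kept in the list and so entered its counts and median. RASGRP4, an activator of Ras, and UNC13D, a priming factor of secretion, had log2 fold changes of 1.92 and 1.95, while CHN1 and UNC13A had -1.79 and -1.62. Of 11 polarity partners of the atypical isoforms, 6 fell, 1 rose and 4 did not pass, with a median of -0.35. WWC1 fell from 45.8 ± 4.81 to 9.93 ± 0.528 CPM (log2 fold change -2.21, SE 0.13, adjusted p = 2.55e-08), and ECT2 had -0.97. LLGL2 rose (0.69, adjusted p = 0.000816). SQSTM1 had -0.35 (adjusted p = 0.0384) and did not pass with library totals, with the parental line as a block, or without CA-p38, VPA or primed CA-p38, at adjusted p up to 0.370. The PAR3 and PAR6 genes and CDC42, the core of the polarity complex, were singled out after their values were seen. PARD6A fell from 6.89 ± 0.143 CPM in primed to 1.72 ± 0.404 CPM in naive libraries (log2 fold change -2.005, SE 0.27, adjusted p = 4.04e-05). PARD6G fell as well (-0.44, adjusted p = 0.0298), but did not pass with library totals, without CA-p38 or without either primed library, at adjusted p up to 0.142. PARD3, PARD3B, PARD6B and CDC42 did not pass, with log2 fold changes of -0.07, 0.54, 0.01 and 0.08. PARD3B passed without the primed CA-p38 library (1.122, adjusted p = 0.0400).

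**Figure D5:**
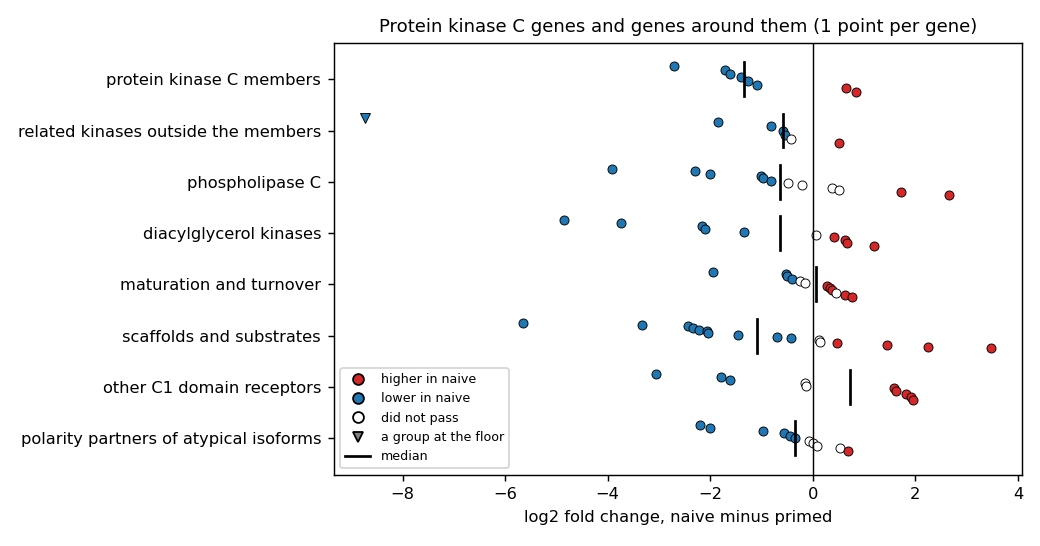
Log2 fold change between naive and primed libraries (horizontal axis, positive is higher in naive) of every tested gene of the PKC list and the 7 lists around it (rows), with colour for genes that passed the threshold and a bar at the median of each list. The PKC genes have a median of -1.33, MARCKS lies at -5.65 among the substrates, and the triangle marks PRKD1, whose naive libraries are at the floor and whose fitted value is not a measured fold.

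For each PKC gene the most similar profile over the 6 libraries was sought among 18066 genes, as the Euclidean distance between log2 CPM centred on each gene's own mean. The nearest were RNF144B to PRKCA (distance 0.27), HIP1 and PDE7A to PRKCQ (0.15 and 0.17), FOCAD and EFL1 to PRKCI (0.11 and 0.13), STARD4 to PRKCH (0.26), SYNE3 to PRKCD (0.07) and ATP6V1A to PRKCZ (0.10 as the second nearest). The nearest to PRKCE were AC022893 (0.31) and CCDC102B (0.32). PRKCB had the largest nearest distance of the 8 genes, with AC004540 at 0.46 and ARV1 at 0.50. It was also the gene with the widest range among naive libraries. Among the 8 genes themselves, the closest pairs were PRKCH with PRKCI (0.51) and PRKCD with PRKCZ (0.53). These distances describe 6 libraries that share 2 states, and a small distance says only that the values ran in parallel.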

How the data were processed

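The authors trimmed adapters with cutadapt 1.15 through Trim Galore 0.4.4, mapped reads with Bowtie2 to Ensembl GRCh38 cDNA and noncoding RNA sequences and summed alignments per gene above a mapping quality limit of 1. RSEM is also named in the methods. The table as deposited holds whole-number counts by Ensembl identifier, not normalized. Use of strand in counting is not given in the sources used here. The other 23 columns of the table belong to other studies and were not used. The 26 spike-in features were left out (at most 1 count per library). Identifiers that share a name were summed (61196 to 48183 names), and columns were matched to samples by their titles.

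The states were tested with edgeR 4.0.16 under R 4.3.3 (filterByExpr, TMM, then glmQLFit with glmQLFTest, no covariate), with Benjamini-Hochberg adjustment over 26497 genes and a threshold of 0.05. CPM are TMM-scaled, and log2 CPM and folds over a parent used a prior count of 0.5. Nothing says that libraries of a state were independent cultures, so that p-values measure the spread between these libraries, which for the naive state includes the induction methods. AICAR 1 and AICAR 2 differed by more than sampling noise (chi-square of 26.8 per gene over 17918 genes). CA-p38 differed from them by similar amounts, 26.7 per gene from AICAR 1 and 25.4 from AICAR 2. The AICAR libraries were thus no more alike than either was to CA-p38. Named genes were the 8 PKC genes and, from each list, the 2 highest and 2 lowest fitted changes among genes that passed with a mean of at least 5 CPM. Members and lists were chosen with earlier results of these data known. Positions and lengths came from GENCODE release 44, and promoter sequences from RefSeq, in which all 8 genes matched. Alternatives used DESeq2 1.42.0 and limma 3.58.1. Fits were tested on simulated data. Other steps ran in Python 3.11.15 (pandas 2.3.3, numpy 2.4.6, scipy 1.17.1), and matplotlib 3.10.9 drew the plots. Some items are not reported here.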

Additional observations from a re-analysis of the deposited data

How the results depend on the processing

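The log2 fold change of each PKC gene was recomputed under 15 alternatives: each of the 6 libraries left out, library totals or median-ratio factors as scaling, DESeq2, limma-voom, no filter, a minimum of 10 counts per library, a block for the parental line, AICAR libraries added together, and identifiers kept apart. Under these, 8 of 8 kept their direction and 7 of 8 their side of the threshold. The exception was PRKCE, with -0.99 under library totals (edgeR, adjusted p = 0.0551) and -1.33 to -0.99 with a library left out. The block for the parental line changed no PKC call. With a library left out, the related kinases had 0 to 1 higher, the diacylglycerol kinases 2 to 4 higher, the maturation genes 2 to 5 higher and 2 to 5 lower, and the polarity partners 1 to 2 higher. The maturation genes had 3 higher with median-ratio factors and 3 with DESeq2, and the diacylglycerol kinases 2 lower with at least 10 counts in each library, where fewer genes were tested. With the longest transcript as length, PRKCI made 26.1% of the family in naive and 46.4% in primed libraries, and PRKCZ 42.5% and 20.1%. The sign of genes that did not pass was not stable. PARD3 had 0.032 with library totals and -0.15 to 0.0089 with a library left out, and PARD6B had -0.048 with median-ratio factors, -0.048 with DESeq2, -0.0204 without a filter, -0.0082 with identifiers kept apart and -0.31 to 0.40 with a library left out. Depth limits PRKCE most, at 29 to 89 counts per library.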
